A study of Mus musculus with 6 samples.

Results

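Fatty acid beta-oxidation is represented here by 10 genes of the 23038 listed in the deposited tables, selected by symbol: Cpt1a, Cpt1c, Cpt2, Acadvl, Acadl, Acadm, Acads, Hadha, Hadhb and Etfdh. Poly-A RNA was sequenced from the mouse line NSC-34, a hybrid of motor neuron-enriched spinal cord cells and neuroblastoma, grown in serum-containing DMEM. Of 6 libraries, 3 came from cells transfected with control siRNA (siNC) and 3 from cells transfected with siRNA for Qk (siQk), the gene of the Quaking RNA-binding proteins. The libraries carry no other allele or agent in their labels, the cultures were independent, and 3 different siRNAs against Qk were used without the labels giving which library received which. The group of genes was put together with earlier results of the siQk and siNC comparison known, and Acadm stands out in that comparison, so differences between siQk and siNC in these 10 genes are given as a description, and nothing is read from the counts of them past a cutoff.

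Mitochondrial beta-oxidation shortens fatty acids by repeated cycles, each of which releases acetyl-CoA. Long chains enter the matrix through the carnitine shuttle (Cpt1a, Cpt2), acyl-CoA dehydrogenases for very long, long, medium and short chains (Acadvl, Acadl, Acadm, Acads) open each cycle, and the trifunctional protein (Hadha, Hadhb) completes it for long chains. The electrons that the dehydrogenases remove pass through the electron transfer flavoprotein and Etfdh to ubiquinone. Neurons are known for low use of fatty acids as fuel, and Cpt1c is a brain form of the carnitine enzyme that sits in the endoplasmic reticulum and has little catalytic activity.

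Library totals ran from 43000503 to 53565950 counts. Qk was at 8.18 to 14.9 RPKM (reads per kilobase of exon, scaled to the library's total) in siNC and at 1.10 to 1.71 RPKM in siQk, so the knockdown showed in each siQk library. Of 8 neuronal markers listed, 7 had a mean above 1 RPKM, with sums of 370.4 to 704.4 RPKM in siNC and 502.1 to 720.5 RPKM in siQk. Motor neuron markers were partly present: Chat, Mnx1 and Slc5a7 did not exceed 0.141, 0.0944 and 0.0238 RPKM in any library, whereas the transcription factor Isl1 was at 4.75 to 4.83 RPKM in siNC and at 7.80 to 9.63 RPKM in siQk. Isl1 and Chat were the 2 of 8 motor neuron markers whose groups lay apart in RPKM, both higher in siQk. Of tissues that burn much fat, muscle markers summed to at most 2.08 RPKM, with Myh4 at 0 in every library, and hepatocyte markers to at most 11.1 RPKM, nearly all from Ttr, with Serpina1a at 0. The libraries siQk replicate 2 and siNC replicate 3 stood farthest from the others, on the first principal component (41.2% of variance) and the second (28.9%), in that order. Of the 7 neuronal markers above 1 RPKM, siNC replicate 3 was the lowest library for 4 and the highest for 0, and siQk replicate 2 was the lowest for 2 and the highest for 1. The parts of cell state and of the siRNA received in the values of these libraries were not tested. The lowest and highest values with 1 library left out are given beside the fold changes that this moved most.

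Hadha and Hadhb lie head to head on chromosome 5, and the stretch between them is shown because both genes can be read from it. In the RefSeq annotation of GRCm38.p6 their start sites are 273 bases apart on opposite strands, and in GENCODE M21 they are 86 bases apart. The RefSeq window around the Hadhb start, chr5:30155003-30155302 on the plus strand, shares 228 bases with the matching window of Hadha, printed in capitals.
Hadhb start window: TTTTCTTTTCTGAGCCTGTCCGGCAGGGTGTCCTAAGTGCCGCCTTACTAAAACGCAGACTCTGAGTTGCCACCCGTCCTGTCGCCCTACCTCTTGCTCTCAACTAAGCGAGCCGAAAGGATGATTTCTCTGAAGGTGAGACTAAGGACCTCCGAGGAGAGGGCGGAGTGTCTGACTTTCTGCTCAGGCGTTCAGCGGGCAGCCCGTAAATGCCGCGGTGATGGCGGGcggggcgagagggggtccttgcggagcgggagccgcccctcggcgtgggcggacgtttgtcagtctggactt

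All 10 genes have such a window in the RefSeq table. The GC box GGGCGG, searched on both strands, was found in 8 of 10 windows (not in Acadm or Acadvl) and in 35.7% of all 32851 windows, and Hadha and Hadhb share part of theirs. The motif CCAAT was found in 3 of the 10 windows (Cpt1a, Cpt1c and Etfdh) and in 37.4% of all windows. The extended half-site TCAAGGTCA, bound by estrogen-related receptors, and the DR1 element bound by PPAR and RXR, a direct repeat of AGGTCA with 1 base between, were found in 0 of the 10 windows and in 0.423% and 0.0396% of all windows. These are matches of letters in short windows and not measured binding.

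In siNC the 10 genes spanned from 6.14 to 42.7 RPKM, against a median of 10.5 RPKM over the 12665 genes tested. Hadha stood highest with 42.7 ± 3.59 RPKM (SD, n = 3) and was followed by Acadl with 38.3 ± 2.39 RPKM, and their library ranges overlapped. Acadvl (27.3 ± 9.72 RPKM) and Cpt1a (22.8 ± 5.19 RPKM) came next and also overlapped. Hadhb (16.5 ± 0.882 RPKM), Acadm (15.5 ± 0.902 RPKM), Acads (11.2 ± 3.89 RPKM) and Cpt1c (10.1 ± 1.59 RPKM) each overlapped with the next gene in the order, which for Cpt1c was Etfdh (8.54 ± 0.606 RPKM), and Cpt2 was lowest at 6.14 ± 0.602 RPKM. The steps in which every siNC library of one gene lay above every library of the next were Acadl over Acadvl, Cpt1a over Hadhb, and Etfdh over Cpt2. This order depends on the exon length used for RPKM. That length was 6621 bases for Etfdh and 5581 for Cpt1c, against 2377 and 2793 in their longest protein-coding GENCODE M21 transcripts. A shorter length would place these 2 genes higher, so their low ranks hold for the deposited lengths only.

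In siQk the order was the same at the top and bottom, with Hadha, Acadl and Acadvl first and Cpt2 last. Acadm moved from rank 6 to rank 4, above Cpt1a and Hadhb, and Etfdh and Cpt1c exchanged places. These changes of rank were between genes whose siQk ranges overlapped.

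**Figure D1:**
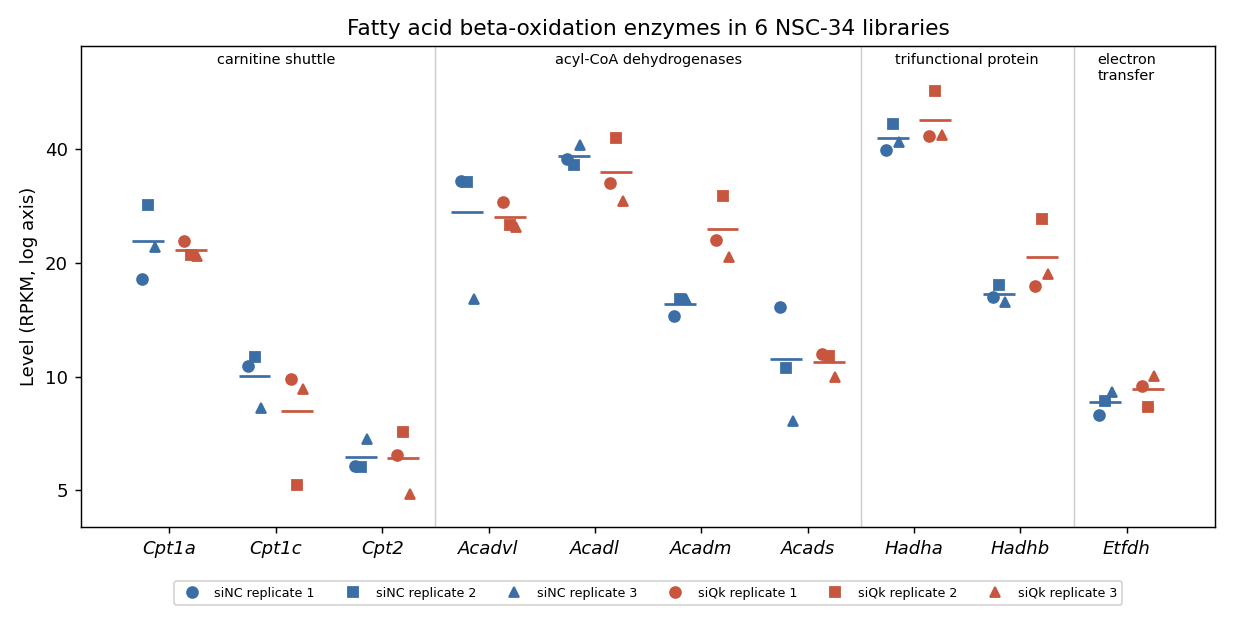
Level in RPKM (log axis) of the 10 enzymes in each of the 6 libraries, blue for siNC and red for siQk, with a marker shape per replicate number and a line at each group mean. Acadm is the gene whose groups lie clearly apart (14.5 to 16.1 against 20.8 to 30.1 RPKM), and siQk replicate 2 is the highest library for 5 of the 10 genes.

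Of the carnitine shuttle genes, none had groups that lay apart. Cpt1a (Entrez 12894, GRCm38 chromosome 19, 3322334 to 3385733, plus strand), the enzyme that commits long-chain fatty acids to oxidation, was at 18.1, 28.4 and 22.0 RPKM in siNC and at 22.8, 21.0 and 20.9 RPKM in siQk. All siQk values lay inside the siNC range, and the log2 fold change was -0.10 (SE 0.18). It ran from -0.25 without siNC replicate 1 to 0.050 without siNC replicate 2, the library with the highest level.

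Cpt1c (Entrez 78070, chromosome 7, 44959372 to 44974851, minus strand) was at 10.6, 11.3 and 8.25 RPKM in siNC and at 9.87, 5.16 and 9.28 RPKM in siQk. Only siQk replicate 2 lay below the siNC range, and the log2 fold change of -0.33 (SE 0.32) became -0.090 without it and -0.50 without siQk replicate 1. In GENCODE, 366 bases of its exons overlap the antisense gene 6530437J22Rik, whose reads cannot be told apart without strand. Cpt2 (Entrez 12896, chromosome 4, 107903981 to 107923610, minus strand), which releases the acyl group from carnitine inside the mitochondrion, was at 5.81, 5.78 and 6.84 RPKM in siNC and at 6.19, 7.14 and 4.91 RPKM in siQk. Here the siQk libraries bracketed the siNC libraries on both sides, and the log2 fold change was -0.045 (SE 0.19), from -0.18 without siQk replicate 2 to 0.079 without siQk replicate 3.

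The ratio of Cpt1a to Cpt1c within a library does not depend on how libraries are scaled. It was 1.70, 2.52 and 2.67 in siNC and 2.31, 4.07 and 2.25 in siQk. The library siQk replicate 2 stood above the other 5, and the remaining siQk libraries lay within the siNC range.

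Among the acyl-CoA dehydrogenases Acadm was the one whose groups lay apart. In bulk RNA, more cells that express a gene and more RNA per cell cannot be told apart, here and below. Acadm (Entrez 11364, chromosome 3, 153922357 to 153944632, minus strand) encodes the medium-chain enzyme, whose inherited loss is a well-known cause of fasting hypoglycaemia. It was at 14.5, 16.1 and 16.1 RPKM in siNC and at 22.9, 30.1 and 20.8 RPKM in siQk, from 1345 to 3139 counts per library. Every siQk library lay above every siNC library, the siNC values were close together, and siQk replicate 2 was highest.

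The siQk mean of Acadm was 24.6 ± 4.88 RPKM against 15.5 ± 0.902 RPKM in siNC (SD, n = 3), or 158.2% of siNC. The log2 fold change was 0.63 (SE 0.17), and 182 of the 12665 genes tested, 1.44%, had a fold change at least as high. It was 0.46 without siQk replicate 2 and 0.73 without siQk replicate 3. The motor neuron markers Isl1 and Chat also lay higher in every siQk library, and their part in the Acadm values was not tested. Its exons overlap no other gene in GENCODE M21.

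Acadl (Entrez 11363, chromosome 1, 66830839 to 66863277, minus strand), the long-chain enzyme, was at 37.6, 36.4 and 41.0 RPKM in siNC and at 32.6, 42.7 and 29.1 RPKM in siQk. Of the siQk libraries, replicates 1 and 3 lay below the siNC range and replicate 2 above it. The log2 fold change was -0.17 (SE 0.18) with all libraries, -0.34 without siQk replicate 2 and -0.063 without siQk replicate 3.

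Acadvl (Entrez 11370, chromosome 11, 70010183 to 70015411, minus strand), the very-long-chain enzyme of the inner membrane, was at 33.0, 32.8 and 16.1 RPKM in siNC and at 29.0, 25.2 and 25.0 RPKM in siQk. The low library was siNC replicate 3, and the log2 fold change of -0.063 (SE 0.33) was -0.32 without it and 0.097 without siNC replicate 1. Exons of Dvl2 on the opposite strand cover 1151 bases of Acadvl exons, so reads there cannot be assigned by strand. Dvl2 was at 11.6, 11.4 and 8.34 RPKM in siNC and at 11.1, 10.3 and 11.5 RPKM in siQk, lowest in the same library as Acadvl, and its part in the Acadvl values was not tested.

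Acads (Entrez 11409, chromosome 5, 115110299 to 115119346, minus strand), the short-chain enzyme, was at 15.3, 10.5 and 7.64 RPKM in siNC and at 11.5, 11.3 and 9.99 RPKM in siQk. The siQk values again lay inside a wide siNC range. The log2 fold change was -0.050 (SE 0.28), between -0.24 without siNC replicate 3 and 0.24 without siNC replicate 1.

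Set against its relatives within each library, Acadm was separated most tightly from Acadl. The ratio of Acadm to Acadl was 0.386, 0.442 and 0.391 in siNC and 0.703, 0.704 and 0.714 in siQk. The siQk ratios were nearly the same in the 3 libraries although the levels of both genes were highest in siQk replicate 2. The ratio of Acadm to Acadvl was 0.439, 0.491 and 0.9999 in siNC and 0.790, 1.19 and 0.832 in siQk, and that of Acadm to Acads 0.946, 1.53 and 2.10 in siNC and 1.999, 2.66 and 2.08 in siQk. In both of these siNC replicate 3, where Acadvl and Acads were low, reached into the siQk range.

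**Figure D2:**
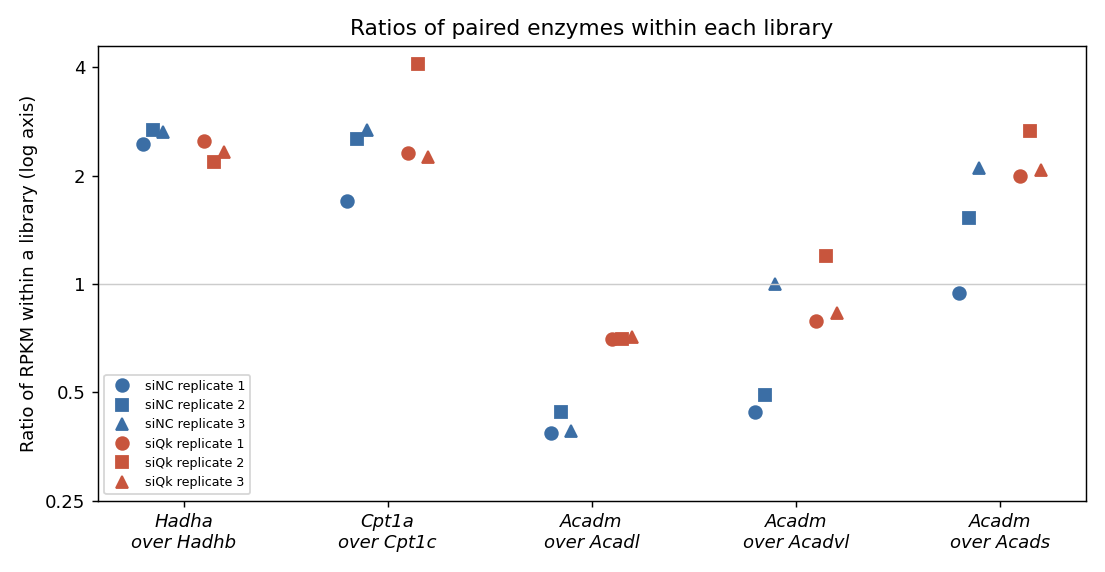
Ratio of RPKM within each library (log axis) for 5 pairs of enzymes, blue for siNC and red for siQk, with a marker shape per replicate number. The Acadm to Acadl ratio lies at 0.386 to 0.442 in siNC and at 0.703 to 0.714 in siQk, while the Hadha to Hadhb ratio stays between 2.18 and 2.67 in all 6 libraries.

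The 2 subunits of the trifunctional protein were highest in the same library. Hadha (Entrez 97212, chromosome 5, 30118304 to 30155162, minus strand), which carries the hydratase and hydroxyacyl-CoA dehydrogenase activities, was at 39.7, 46.7 and 41.8 RPKM in siNC and at 43.4, 56.8 and 43.5 RPKM in siQk. Hadhb (Entrez 231086, chromosome 5, 30155248 to 30184593, plus strand), the thiolase subunit, was at 16.2, 17.5 and 15.8 RPKM in siNC and at 17.4, 26.1 and 18.7 RPKM in siQk. Both were higher in siQk replicate 2 than in the other libraries, with the remaining siQk libraries near the siNC values.

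The log2 fold change of Hadha was 0.14 (SE 0.14) and that of Hadhb 0.30 (SE 0.18). Without siQk replicate 2 they were -0.00047 and 0.10, and without siQk replicate 1 they were 0.21 and 0.41. The Hadhb groups overlapped in RPKM, by siQk replicate 1 (17.4) and siNC replicate 2 (17.5), and lay just apart once the counts were scaled by TMM. The ratio of Hadha to Hadhb was 2.44, 2.67 and 2.65 in siNC and 2.49, 2.18 and 2.33 in siQk. Over the 6 libraries the log2 of this ratio had an SD of 0.11, smaller than that of Hadha (0.18) or Hadhb (0.26) alone. In GENCODE, 75 bases of Hadha exons overlap Garem2 on the opposite strand.

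Etfdh (Entrez 66841, chromosome 3, 79603788 to 79629500, minus strand), which hands the electrons of all these dehydrogenases to ubiquinone, was at 7.90, 8.62 and 9.11 RPKM in siNC and at 9.45, 8.33 and 10.0 RPKM in siQk. Its groups overlapped through siQk replicate 2, and the log2 fold change was 0.092 (SE 0.12), which was 0.021 with siQk replicate 3 left out and 0.17 with siNC replicate 3 left out. Its exons share 278 bases with 4930579G24Rik on the opposite strand.

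Etfdh also carried the most Quaking recognition motifs among the 10 genes. The motif ACTAAC or ACTAAT was counted on the sense strand of the longest protein-coding GENCODE M21 transcript of each gene, which leaves out introns. Etfdh had 6 sites in 2377 bases, Hadhb had 2, Acadl, Acadvl, Hadha and Cpt1a had 1 each, and Acadm, Acads, Cpt1c and Cpt2 had 0. At least 1 site was present in 6 of these 10 transcripts and in 45.1% of 11013 tested genes with such a transcript. The gene with the most sites (Etfdh) had a log2 fold change of 0.092, and Acadm, with the highest fold change, had no site in its spliced transcript. Whether the sites bear on the fold changes was not tested, and sites in introns were not counted. The sites of Etfdh are shown with their surroundings, 5′ to 3′, the motif in capitals, named by the position of its initial base in the transcript.
Etfdh site 324: catgttggtgcgACTAACcaagctgtcctg
Etfdh site 955: aaaggaatcgccACTAATgatgtaggcata
Etfdh site 1458: tcctggtggcttACTAATtggttgtagtcc
Etfdh site 1560: aatttttaagcaACTAACtagtgaaaatct
Etfdh site 1888: gctttgagtggtACTAATcatgaacatgac
Etfdh site 2231: aatgtatgccaaACTAACttcctgtatgtt

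As a group, all 10 genes passed the filter on low counts, and 4 had a positive and 6 a negative log2 fold change, with a median of -0.048 against 0.0034 over all genes tested. None of the 10 passed the study's cutoffs (p under 0.01 and adjusted p under 0.1) in edgeR's quasi-likelihood test, where 0.0079% of all genes did (1 gene, Qk). At an unadjusted p under 0.05 there was 1 of the 10, Acadm, against 2.89% of all genes. In DESeq2 and in the edgeR exact test 0 of the 10 passed, against 0.15% and 0.0395% of all genes. The siNC and siQk groups did not overlap in TMM-scaled counts for 2 of the 10 (Acadm and Hadhb, both higher in siQk), against 8.52% of all genes and 4.45% in that direction. Only Acadm had a log2 fold change of at least 0.5 in size, as did 6.48% of all genes. Since Acadm was known from this comparison when the group was made, nothing is read from these counts.

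The spread between libraries was not alike among the 10 genes. In siNC the SD of log2 CPM ran from 0.040 (Hadhb) to 0.55 (Acadvl), with a median of 0.16 against 0.26 over all genes tested. In siQk it ran from 0.074 (Cpt1a) to 0.53 (Cpt1c), with a median of 0.24 against 0.20. The library siQk replicate 2 was the highest of the 6 for 5 genes (Acadm, Acadl, Hadha, Hadhb and Cpt2), where 28.8% of all genes tested were highest in it. It was at the same time the lowest for Cpt1c.

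**Figure D3:**
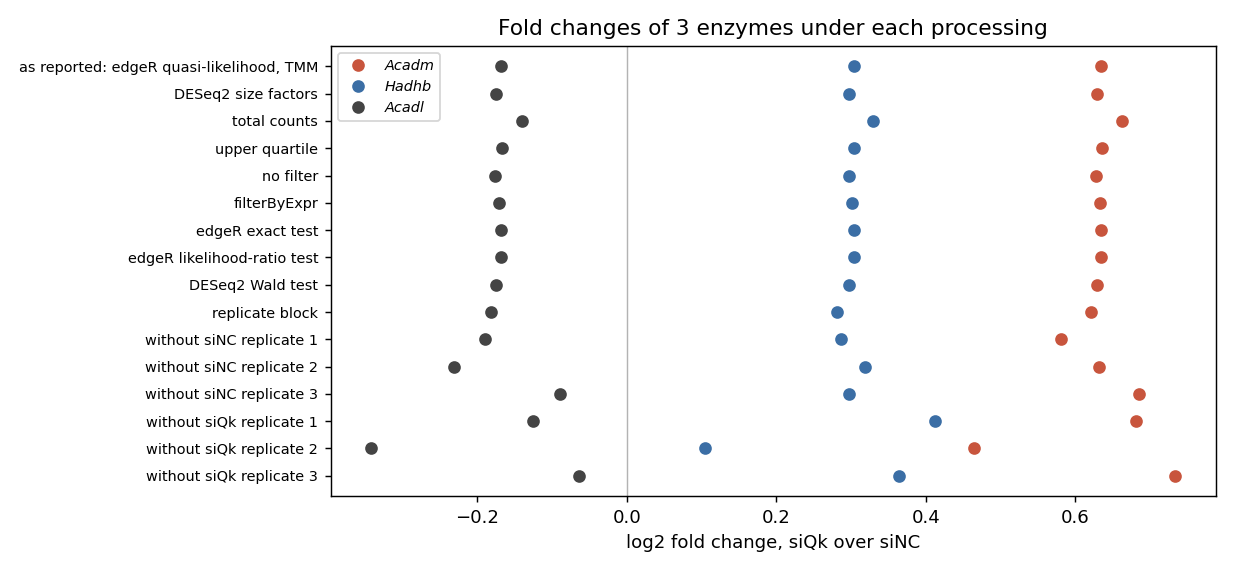
Log2 fold change (siQk over siNC) of Acadm, Hadhb and Acadl as reported and under 15 other fits, 1 row per fit. Acadm stays between 0.46 and 0.73, and the fit without siQk replicate 2 gives its lowest value and moves Hadhb to 0.10 and Acadl to -0.34.

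Genes whose levels over the 6 libraries were most like those of Acadm did not come from beta-oxidation. The highest Pearson correlations of TMM-scaled log2 CPM with Acadm, over 6 libraries and 12664 genes, were those of Chst15 (0.99), Zfp53 (0.99), Fubp1 (0.99), Cdc34 (0.98) and Kcnk5 (0.98). With so few libraries 150 genes reached 0.9 or more, so these values only describe likeness. Fubp1, a DNA- and RNA-binding regulator, was at 29.0, 32.7 and 32.7 RPKM in siNC and at 43.0, 52.3 and 42.7 RPKM in siQk. Among the other enzymes the values were 0.86 for Hadhb (rank 258) and 0.77 for Hadha (rank 707), from -0.17 to 0.28 for Acadvl, Cpt1a, Acads, Acadl, Etfdh and Cpt2, and -0.82 for Cpt1c.

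The rest of the mitochondrial pathway showed no called gene. Of 24 other genes of fatty acid activation, carnitine transport and mitochondrial beta-oxidation 23 were tested, 10 with a positive and 13 with a negative log2 fold change and a median of -0.048. In edgeR's quasi-likelihood test 0 were called and 0 had an unadjusted p under 0.05, in either direction. After TMM scaling the groups lay apart for 0 of the 23, against 8.52% of all genes. The smallest p belonged to Acot2, a mitochondrial acyl-CoA thioesterase, at 8.17, 4.12 and 8.44 RPKM in siNC and 4.88, 1.22 and 4.44 RPKM in siQk. Its groups overlapped, its log2 fold change was -1.01 (SE 0.74), from -1.32 without siQk replicate 1 to -0.60 without siQk replicate 2, and its adjusted p in edgeR was 0.9996. Hsd17b10, a short-chain hydroxyacyl-CoA dehydrogenase, was at 102.4, 85.5 and 123.2 RPKM in siNC and 114.3, 202.6 and 104.7 RPKM in siQk, again highest in siQk replicate 2, and its log2 fold change of 0.41 (SE 0.34) was 0.047 without that library and 0.58 without siNC replicate 3. Acsl1, which activates long-chain fatty acids, had a log2 fold change of 0.31 (SE 0.24), which the same libraries moved to 0.10 and 0.44 when left out. Etfb, a subunit of the flavoprotein that accepts electrons from Acadm and its relatives, was the most abundant of this list at 197.8 ± 27.4 RPKM in siNC against 201.2 ± 26.9 RPKM in siQk (n = 3, SD). Cpt1b, the muscle form of the carnitine enzyme, had 0 to 11 counts per library, too few to be tested, at 0 to 1.45 RPKM. So few counts give such RPKM only over a short listed exon length, so its level is not comparable with the others.

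The 4 acyl-CoA dehydrogenases of amino acid breakdown, which use the same electron acceptor, had 0 called genes, 0 at an unadjusted p under 0.05 and a median log2 fold change of 0.072. Groups lay apart after TMM scaling for 0 of the 4, against 8.52% of all genes. Gcdh, the glutaryl-CoA enzyme of lysine breakdown, was at 7.39, 6.99 and 4.32 RPKM in siNC and 8.77, 8.43 and 7.33 RPKM in siQk, a log2 fold change of 0.37 (SE 0.23) with groups that overlapped by 1 library. The fold change ran from 0.19 without siNC replicate 3 to 0.51 without siNC replicate 1. Ivd, the isovaleryl-CoA enzyme of leucine breakdown, was the highest of the 4 at 22.2 ± 2.73 RPKM in siNC against 23.8 ± 2.21 RPKM in siQk (n = 3, SD). Acad8, of valine breakdown, had a log2 fold change of -0.17 (SE 0.23), from -0.35 without siNC replicate 2 to 0.045 without siNC replicate 3.

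Peroxisomes oxidise very long and branched fatty acids with enzymes of their own. Of 21 peroxisomal genes 16 were tested, 7 with a positive and 9 with a negative log2 fold change and a median of -0.026, with 0 called and 0 at an unadjusted p under 0.05. After TMM scaling the groups lay apart for 1 of the 16, Acot8, higher in siQk (4.45% of all genes in that direction), and for 0 in the other. In RPKM the Acot8 groups overlapped. Among those with the smallest p were Acot8, a thioesterase (log2 fold change 0.19, SE 0.077), and Hsd17b4, the multifunctional enzyme (0.16, SE 0.16, from 0.022 without siNC replicate 2 to 0.29 without siNC replicate 3). The most abundant was Ech1 at 82.8 ± 10.7 RPKM in siNC against 82.2 ± 10.9 RPKM in siQk (n = 3, SD). Acox2, Acaa1b, Abcd2 and Slc27a2 were below the filter, at no more than 0.780 RPKM in any library, and Acot4 was listed at 0.

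The regulators of fatty acid oxidation were unevenly present in these cells. Of 23 genes 18 were tested, with 0 called, 0 at an unadjusted p under 0.05 and a median log2 fold change of -0.077. Ppargc1a, the coactivator that drives oxidative genes in muscle and liver, did not exceed 0.039 RPKM, and Rxrg and Esrrb were listed at 0 in all 6 libraries. Esrra, the estrogen-related receptor that binds promoters of oxidation genes, was at 13.2, 17.2 and 11.3 RPKM in siNC and 10.9, 11.8 and 11.7 RPKM in siQk, a log2 fold change of -0.29 (SE 0.16) that was -0.14 without siNC replicate 2 and -0.40 without siNC replicate 3. Prkaa1, a catalytic subunit of the energy sensor AMPK, was at 20.1, 17.3 and 15.9 RPKM in siNC and 23.7, 20.3 and 23.0 RPKM in siQk, a log2 fold change of 0.30 (SE 0.11), and Prkaa2, which encodes the alternative catalytic subunit, had a log2 fold change of -0.45 (SE 0.24) at about 1 RPKM. After TMM scaling the groups lay apart for 2 of the 18, Esrra and Rxrb, both lower in siQk (4.07% of all genes lay apart in that direction), and for 0 in the other direction. Rxrb, a partner of PPAR, was named after its values were seen. The groups of Prkaa1 lay apart by a small margin in RPKM only and overlapped after TMM scaling. The most abundant regulator was the corepressor Ncor1, at 23.7 ± 3.22 RPKM in siNC against 23.6 ± 2.06 RPKM in siQk (n = 3, SD).

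PPAR targets outside oxidation were mostly at or near 0. Of 12 genes 5 were tested, with 0 called and 0 at an unadjusted p under 0.05 and a median log2 fold change of 0.054, and Pdk4 and Fabp4 were listed at 0 in every library. Plin2, a coat protein of lipid droplets, was at 38.8, 38.8 and 33.7 RPKM in siNC and 33.5, 30.3 and 32.0 RPKM in siQk. Its siQk libraries all lay below the siNC libraries, by a small margin, with a log2 fold change of -0.24 (SE 0.061) and an edgeR adjusted p of 0.9996. After TMM scaling, Plin2 was 1 of the 5 with groups apart and lower in siQk, against 4.07% of all genes, and 0 lay apart in the other direction. Ucp2, a mitochondrial carrier, was the most abundant at 80.2 ± 11.5 RPKM in siNC against 84.7 ± 12.7 RPKM in siQk (n = 3, SD). Plin4 and Angptl4 had log2 fold changes of 0.31 (SE 0.63) and -0.20 (SE 0.21). Plin4 ran from -0.088 without siNC replicate 3 to 0.72 without siNC replicate 1, and Angptl4 from -0.39 without siQk replicate 2 to -0.064 without siQk replicate 3.

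**Figure D4:**
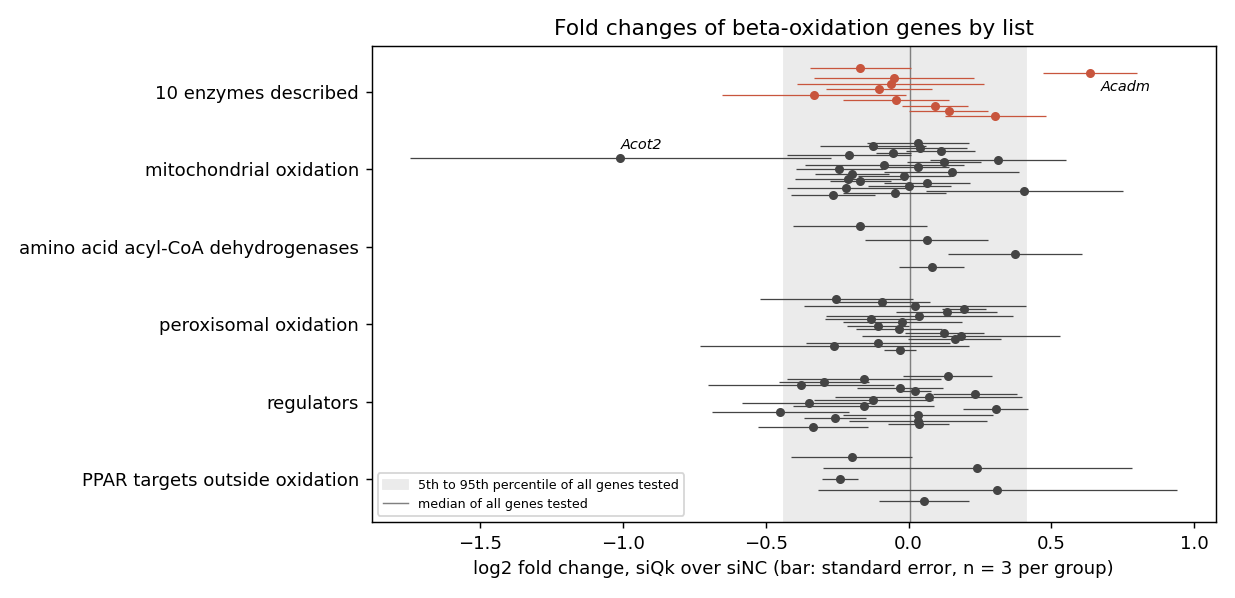
Log2 fold change of siQk over siNC, with the standard error (n = 3 per group), for the 10 enzymes (red) and the tested genes of the 5 other lists (grey), beside the range from the 5th to the 95th percentile of all 12665 genes tested (-0.43 to 0.41, shaded). Acadm at 0.63, Acot2 at -1.01 (with a wide error) and, just past its edge, Prkaa2 at -0.45 lie outside the shaded range.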

How the data were processed

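Per the labels and the study's methods, poly-A RNA was sequenced as paired reads with a kit that keeps no strand. The authors aligned the reads with OLego to the mouse genome (mm10 in the labels) and counted per gene with Quantas, with versions not given in the sources used here. The deposited values are expected counts and RPKM per gene, and the RPKM equal the counts scaled by exon length and library total. Expected counts were rounded, scaled by TMM and kept where mean log2 CPM was above 0 (12665 genes). The test was edgeR 4.0.16 quasi-likelihood, siQk against siNC, in R 4.3.3, called at p under 0.01 and Benjamini-Hochberg adjusted p under 0.1, the study's cutoffs. Standard errors come from TMM-scaled log2 CPM (prior count 2). Gene positions are GENCODE M21 on GRCm38, and promoters are RefSeq. Scripts were tested on simulated data. The 10 genes and the lists were chosen with earlier results of these data known. Genes named from the other lists were the 3 with the smallest p and the most abundant, and 5 were named for likeness to Acadm, with some values not reported here. Alternatives were other scalings, filters, tests (DESeq2 1.42.0 among them), a replicate block and leaving out each library, the last added for genes of the other lists after seeing the data. P-values measure the spread between 3 cultures per group, which in siQk may also hold differences between the 3 siRNAs.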

Additional observations from a re-analysis of the deposited data

How the results depend on the processing

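None of the 10 enzymes was called under any of the 15 other fits or at an adjusted p cutoff of 0.05, and no gene of the 5 other lists was called under the 15 fits. The number of genes called over the whole table was 5 in the edgeR exact test, 5 in the likelihood-ratio test and 19 in DESeq2, and ran from 0 (without siNC replicate 1) to 1 when single libraries were left out in turn. The median log2 fold change of the 10 enzymes ran from -0.074 to 0.059 when single libraries were left out. Acadm, Hadhb and Etfdh were positive and Acadl and Cpt1c negative in all 15 fits, with ranges of 0.46 to 0.73, 0.10 to 0.41, 0.021 to 0.17, -0.34 to -0.063 and -0.50 to -0.090 in that order. The fits share most or all of the libraries, so the same sign in each does not set the sign. Etfdh (0.092, SE 0.12), Acadl (-0.17, SE 0.18) and Cpt1c (-0.33, SE 0.32) had fold changes about as large as their SE or smaller. Over the fits without one library, Acadvl ran from -0.32 to 0.097, Acads from -0.24 to 0.24, Hadha from -0.00047 to 0.21, Cpt1a from -0.25 to 0.050 and Cpt2 from -0.18 to 0.079, so their signs are not set by these data, and the cause was not tested. The Qk log2 fold change ran from -3.19 to -2.67 and missed the cutoffs without siNC replicate 1 (-3.09, adjusted p 0.125). Libraries of replicate 1, 2 and 3 deviated from their group means with correlations of 0.21, 0.018 and -0.17 between siNC and siQk, so no pairing by number was assumed. With the replicate block the Acadm log2 fold change was 0.62 and the count of called genes stayed at 1. TMM-scaled library sizes left the order of the siNC levels as it was. Counts of 531 to 14179 per gene and library leave little counting error, and 3 libraries per group limit the precision.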
